A study of Mus musculus with 18 samples.

Results

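WT bone marrow progenitors were compared with WT intestine by RNA-seq, using 4 of the 18 libraries of the series, 2 per tissue. The marrow libraries came from lineage-negative, c-Kit-positive cells, the fraction of bone marrow that holds blood stem cells and early progenitors, of mice labelled WT.1262 and WT.1266. The intestine libraries came from dissociated cells of the intestine of mice labelled WT.1476 and WT.1477, and the labels do not name the segment or any sorting. All mice were C57B6/129 hybrid animals of either sex, 6 to 8 weeks old, and received 2 mg/ml doxycycline in their drinking water, WT mice included. The other genotypes carried K9M or K36M, changes of lysine to methionine in histone H3, and their marrow and intestine are used below only to set the same tissue contrast beside the WT one. The labels do not give the driver of the mutant histones and do not state the sex of single mice. Testes libraries of the series carry the mouse numbers of both intestine libraries, WT.1476 and WT.1477, so these mice were male. The comparison covers autosomal genes, because the mice of the tissues differ. Counts are given as CPM, counts per 1000000 of a library's size after TMM scaling, which equalises the bulk of genes between libraries. CPM is not divided by gene length, so levels are set between tissues for one gene and not between genes. Fold changes are on the log2 scale, marrow over intestine, with a standard error, and every adjusted p is from edgeR (quasi-likelihood test, Benjamini-Hochberg over all genes tested). A gene rose, fell or was called where this p was under 0.05.

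Blood progenitors keep a set of transcription factors and cytokine receptors that hold lineage choices open, and the myeloid branch starts to store granule proteins before it leaves the marrow. The intestinal lining is a single epithelial layer renewed from crypts. Its enterocytes carry a brush border of microvilli with digestive enzymes and transporters, while goblet, Paneth, enteroendocrine and tuft cells secrete mucus, antimicrobial proteins, hormones and signals, and lymphocytes sit between the epithelial cells.

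The 4 libraries held 21318781 and 21417915 gene counts in WT marrow and 19398221 and 15471650 in WT intestine. The 100 genes with the most counts took 14.1% and 13.9% of them in marrow, against 26.1% and 28.3% in intestine. Replicates differed by more than sampling noise in both tissues, since chi-square over its degrees of freedom was 22.3 in marrow and 35.9 in intestine. The labels name separate mice, but 2 mice per tissue give only 2 residual degrees of freedom. The 5 intestine markers Epcam, Cdh1, Vil1, Cdx2 and Krt20 summed to 4.15 and 4.90 CPM in WT marrow, against 11132 and 12473 CPM in WT intestine. Of the genes of the marrow sort, Kit, the receptor used to sort the cells, had 324 and 335 CPM in WT marrow, against 6.24 and 6.01 CPM in WT intestine, and this difference was fixed by the sort. Ptprc, the pan-leukocyte phosphatase CD45, had 213 and 161 CPM in WT marrow, against 32.7 and 34.2 CPM in WT intestine. Among lineage markers that the sort should remove, Cd3e, Cd4, Cd8a, Ms4a1 and Ly6g stayed below 1 CPM in both marrow libraries. The 8 listed markers summed to 104 and 95.4 CPM in WT marrow, 3 of them were above 1 CPM in both marrow libraries, and Itgam made up most of the sum, with 81.2 and 61.3 CPM in WT marrow. Xist was counted in both marrow libraries and Y-linked genes in both intestine libraries, as the closing section gives. Tissue, sex, mouse and cell sorting therefore cannot be told apart here.

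Most genes differed between the tissues. Of 14167 autosomal genes that passed the filter on low counts, 5650 were higher in marrow, which is 39.9% of those tested, and 5539 were lower, which is 39.1%. With a difference of at least 4-fold, 2978 genes were higher (21%) and 3203 were lower (22.6%). These shares are the background for every list below, and a list near them is no result about its members. The median log2 fold change over all tested genes was 0.06. With library size alone as the scaling it was 0.95, and the calls split into 7918 higher and 3844 lower. With upper-quartile scaling it was 0.41, and they split into 6520 higher and 4822 lower. Calls of genes with small or variable differences therefore depend on the scaling, and named genes whose call changed sign or was lost with library size alone are marked below. Lists are described by counts and medians. A gene without a count in one tissue is given as a bound, at 3 counts over both libraries of that tissue, and a gene with 1 to 3 counts there as the ratio of counts.

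**Figure D1:**
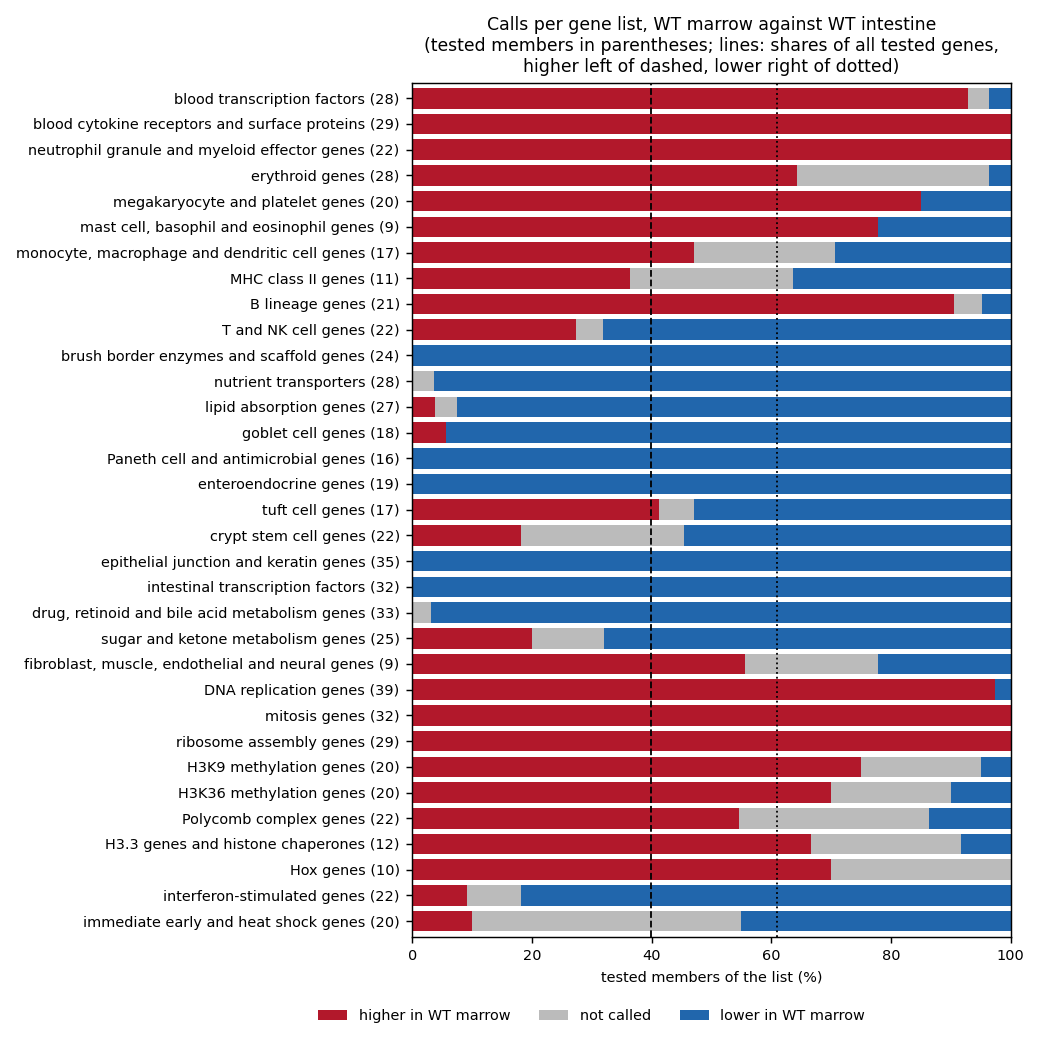
Each bar is a gene list, split along the x axis into the percentage of its tested members called higher in WT marrow (red), not called (grey) and called lower (blue) at an adjusted p under 0.05. All 22 tested neutrophil granule members lie in red and all 24 brush border members in blue, beside 39.9% and 39.1% of all tested genes marked by the dashed and dotted lines.

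Transcription factors of blood cells were mostly higher in marrow: 26 of 28 listed members rose, 1 fell and 1 was not called, with a median log2 fold change of 5.60. Gata2, needed by blood stem cells, had 87.7 and 86.0 CPM in WT marrow, against 0.201 and 0.0924 CPM in WT intestine, a log2 fold change of 9.07 ± 0.25 (adjusted p = 1.03e-05). Spi1 encodes PU.1, the ETS factor of the myeloid and B lineages, and had 133 and 100.2 CPM in WT marrow, against 0.805 and 0.462 CPM in WT intestine. The log2 fold change of Spi1 was 7.46 ± 0.30. Both genes sat above 80 CPM in each marrow library and below 1 CPM in each intestine library. Myb, which keeps progenitors dividing, had 582 and 567 CPM in WT marrow, against 18.6 and 6.65 CPM in WT intestine, and its intestine libraries differed about as the mitosis genes below did. Ikzf1, the lymphoid factor Ikaros, had 325 and 336 CPM in WT marrow, against 5.30 and 4.90 CPM in WT intestine, and rose by 6.01 ± 0.15 log2 units. Etv6, another ETS factor of stem cells, had 228 and 194 CPM in WT marrow, against 37.8 and 32.4 CPM in WT intestine, so its intestine level was well above the count floor.

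The exceptions and the smaller rises were as follows. Mecom, a stem cell factor that is also made in epithelia, had 6.00 and 7.36 CPM in WT marrow, against 11.4 and 29.0 CPM in WT intestine, with a log2 fold change of -1.59 ± 0.46 (adjusted p = 0.0231). That call was lost with upper-quartile scaling, with library size alone, and without either marrow library. Zfpm1, the GATA partner FOG1, had 98.7 and 139.8 CPM in WT marrow, against 137 and 158 CPM in WT intestine, and was not called (adjusted p = 0.211). Irf8, a monocyte and dendritic cell factor, rose by 1.34 ± 0.24 log2 units, with 299 and 207 CPM in WT marrow, against 114 and 86.0 CPM in WT intestine. Cebpa, which drives granulocyte fate and is active in other metabolic tissues, had 167 and 134 CPM in WT marrow, against 51.2 and 37.4 CPM in WT intestine, a rise of 1.76 ± 0.20 log2 units.

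All 29 listed cytokine receptors and surface proteins rose, with a median log2 fold change of 6.99 as fitted and 6.33 with bounds. The summed level of the list was 3233 and 2721 CPM in WT marrow, against 102 and 91.3 CPM in WT intestine. Spn, the sialoglycoprotein CD43, had 471 and 426 CPM in WT marrow, against 5.10 and 4.99 CPM in WT intestine. Itga4, the alpha 4 integrin that holds progenitors in the marrow, had 334 and 327 CPM in WT marrow, against 2.48 and 1.76 CPM in WT intestine. Flt3, the receptor of multipotent progenitors, had 96.9 and 89.1 CPM in WT marrow, against 0.201 and 0.0924 CPM in WT intestine, a log2 fold change of 9.17 ± 0.26. These receptors were high in both marrow libraries, with no overlap with intestine. Cd34, a progenitor surface protein, had 238 and 199.9 CPM in WT marrow, against 0.0670 and 0.0924 CPM in WT intestine, which is a ratio of counts of 2816-fold (95% counting interval 779 to 23251). Csf3r, the G-CSF receptor, had 147 and 142 CPM in WT marrow, against 0.0670 and 0.0924 CPM in WT intestine, a ratio of 1858-fold (95% counting interval 514 to 15346). The smallest rise in the list was that of Ly6a, the stem cell antigen Sca-1, with 6.45 and 5.24 CPM in WT marrow, against 1.27 and 1.11 CPM in WT intestine, a log2 fold change of 2.28 ± 0.34. Itgam and Itgb2, the chains of the Mac-1 integrin, rose by 2.85 ± 0.21 and 3.05 ± 0.23 log2 units, and both had 6 to 11 CPM in intestine.

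Genes for neutrophil granule and myeloid effector proteins were among the largest differences. All 22 members were tested and all rose, with a median log2 fold change of 12.59 as fitted and 9.67 with bounds. The list took 2.17% and 1.73% of all gene counts in WT marrow, against 0.00234% and 0.00242% in WT intestine. Mpo, the myeloperoxidase of primary granules, had 7704 and 6123 CPM in WT marrow, against 0.805 and 0.277 CPM in WT intestine, a log2 fold change of 13.54 ± 0.48 (adjusted p = 1.48e-05). Prtn3, proteinase 3, had 1651 and 1236 CPM in WT marrow, against 0.134 and 0.370 CPM in WT intestine, with a log2 fold change of 12.55 ± 0.42. Elane, neutrophil elastase, had 2212 and 1706 CPM in WT marrow, against 0.0670 and 0.185 CPM in WT intestine, a ratio of counts of 16767-fold (95% counting interval 5737 to 81308). For each of these primary granule genes, marrow mouse WT.1262 was the higher of the marrow mice, both were above 1000 CPM and both intestine libraries were below 1 CPM. Ms4a3, a membrane protein of granulocyte and monocyte progenitors, had 394 and 309 CPM in WT marrow, against 0 CPM in both WT intestine libraries, and was at least 3010.3-fold higher. Ctsg, cathepsin G, had 1141 and 852 CPM in WT marrow, against 0.0670 and 0.0924 CPM in WT intestine. S100a9, a calcium-binding protein of myeloid cells, had 236 and 169 CPM in WT marrow, against 0 CPM in both WT intestine libraries, and was at least 1732-fold higher. Hp, haptoglobin, had 215 and 173 CPM in WT marrow, against 0 CPM in both WT intestine libraries, and was at least 1659-fold higher. Genes of later granules differed more between the marrow mice: Ltf, lactoferrin, had 49.0 and 24.2 CPM in WT marrow, against 1.01 and 0.924 CPM in WT intestine, and Ngp, the neutrophilic granule protein, had 101 and 53.7 CPM in WT marrow, against 0 and 0.0924 CPM in WT intestine. Nkg7 and Srgn, which lymphocytes also make, were also counted in intestine, at 13.3 and 16.5 CPM in WT intestine for Nkg7 and 11.2 and 13.8 CPM in WT intestine for Srgn.

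The starts of 3 of the primary granule genes are shown because they moved together and carry the same 8 letters. The windows run from 250 bases before to 50 after the RefSeq start on GRCm38.p6, not the mm9 build of the counts, and the letters in capitals are GAGGAAGT, a form of the core that PU.1 and other ETS factors bind, or its reverse complement. They are Mpo at chr11:87793534-87793833, plus strand, Elane at chr10:79886062-79886361, plus strand and Prtn3 at chr10:79879417-79879716, plus strand.
Mpo: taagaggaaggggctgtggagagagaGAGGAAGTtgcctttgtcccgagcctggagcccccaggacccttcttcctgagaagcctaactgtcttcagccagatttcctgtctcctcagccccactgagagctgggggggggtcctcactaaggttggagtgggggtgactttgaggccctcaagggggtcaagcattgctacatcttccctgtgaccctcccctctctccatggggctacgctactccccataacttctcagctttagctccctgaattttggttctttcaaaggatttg
Elane: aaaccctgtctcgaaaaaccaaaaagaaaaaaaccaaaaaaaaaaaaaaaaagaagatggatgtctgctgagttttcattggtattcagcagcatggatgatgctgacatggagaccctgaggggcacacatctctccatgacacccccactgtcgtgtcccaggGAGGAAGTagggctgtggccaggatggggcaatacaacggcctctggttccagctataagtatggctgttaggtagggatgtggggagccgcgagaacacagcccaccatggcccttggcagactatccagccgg
Prtn3: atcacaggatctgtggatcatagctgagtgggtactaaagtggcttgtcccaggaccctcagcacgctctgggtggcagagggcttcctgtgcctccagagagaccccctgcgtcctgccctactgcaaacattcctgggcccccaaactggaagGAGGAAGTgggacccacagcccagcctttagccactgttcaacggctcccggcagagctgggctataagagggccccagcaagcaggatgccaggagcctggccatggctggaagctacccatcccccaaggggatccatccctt

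Elane and Prtn3 are neighbours, and their windows were 48.5% identical in a global alignment. GAGGAAGT was in 6 of the 21 windows found for 19 granule genes (28.6%), against 424 of 13057 (3.25%) windows of all tested protein-coding genes. The windows of Mpo, Elane and Prtn3, shown because they carry these letters, are among the 6. It was in 121 of 2596 (4.66%) windows of genes at least 4-fold higher in marrow and in 85 of 2973 (2.86%) of genes at least 4-fold lower. Both strands were searched in windows of 10218 genes, some genes having several windows, and the letters AGATAA of GATA factors were found in 203 of 2596 (7.82%) and 250 of 2973 (8.41%) of the same windows, against 911 of 13057 (6.98%) overall. AGATAA was also in 3 of the 21 (14.3%) granule windows. A match is a description of letters, not of binding.

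Erythroid genes rose in part. Of 28 tested members, 18 rose, 1 fell and 9 were not called, with a median log2 fold change of 3.05, and the list summed to 2192 and 3651 CPM in WT marrow, against 1307 and 1035 CPM in WT intestine. With library size alone 25 of the 28 rose and none fell, with a median of 3.96, so most of the missing calls depend on the scaling. Klf1, the master factor of red cell genes, is listed among the transcription factors and had 43.9 and 78.2 CPM in WT marrow, against 0.402 and 0.647 CPM in WT intestine, a rise of 6.89 ± 0.47 log2 units. Ank1, the ankyrin of the red cell skeleton, had 56.9 and 124 CPM in WT marrow, against 0 CPM in both WT intestine libraries, and was at least 782-fold higher. Mouse WT.1266 was above mouse WT.1262 for both, and its marrow sum over the list was the higher of the pair. Car1 and Car2 are carbonic anhydrases: Car1 had 305 and 526 CPM in WT marrow, against 0 and 0.0924 CPM in WT intestine, while Car2 had 366 and 624 CPM in WT marrow, against 74.2 and 171 CPM in WT intestine, and rose by 2.01 ± 0.47 log2 units, a call that was lost without marrow mouse WT.1266.

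Genes of heme synthesis were mostly without a call under TMM scaling. Cpox, an enzyme of heme synthesis, rose by 0.58 ± 0.21 log2 units. Fech, Alad, Urod, Uros and Ppox, other enzymes of the pathway, were not called, with log2 fold changes of -0.03 ± 0.18, -0.04 ± 0.17, 0.36 ± 0.19, 0.52 ± 0.25 and 0.05 ± 0.21. Slc25a37, the mitochondrial iron carrier mitoferrin 1, had 102 and 127 CPM in WT marrow, against 199.7 and 153 CPM in WT intestine, and fell, with a log2 fold change of -0.62 ± 0.19 that turned to 0.26 with library size alone. Aqp1, a water channel of red cells and vessels, had 226 and 401 CPM in WT marrow, against 333 and 131 CPM in WT intestine, and was not called (adjusted p = 0.448). Tfrc, the transferrin receptor, had 249.8 and 308 CPM in WT marrow, against 261 and 112 CPM in WT intestine, and was not called (adjusted p = 0.228), and in both genes the intestine libraries differed by more than 2-fold.

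Of 20 megakaryocyte and platelet genes, 17 rose and 3 fell. Itga2b, the platelet integrin chain CD41, had 65.3 and 87.9 CPM in WT marrow, against 7.38 and 10.8 CPM in WT intestine, and rose by 3.09 ± 0.26 log2 units. Plek, the platelet kinase substrate pleckstrin, rose by 2.88 ± 0.19 log2 units, with 78.7 and 62.5 CPM in WT marrow, against 8.92 and 10.3 CPM in WT intestine. Pf4, platelet factor 4, had 13.3 and 15.8 CPM in WT marrow, against 0 CPM in both WT intestine libraries, and was at least 125-fold higher. The members that fell were Gp1bb, a chain of the von Willebrand factor receptor, with 1.19 and 1.93 CPM in WT marrow, against 19.2 and 15.3 CPM in WT intestine, Rab27b, a GTPase of granule release, with 6.80 and 10.9 CPM in WT marrow, against 30.4 and 30.9 CPM in WT intestine, and Gp6, the collagen receptor, with 0.0697 and 0.0676 CPM in WT marrow, against 1.14 and 0.832 CPM in WT intestine. The Gp6 call was lost without either marrow library.

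Mast cell, basophil and eosinophil genes were mostly higher in marrow. Of 9 tested members of 14 listed, 7 rose and 2 fell. Prg2 and Epx, granule proteins of eosinophils, had 210.2 and 266 CPM in WT marrow, against 0 CPM in both WT intestine libraries, and 96.9 and 136 CPM in WT marrow, against 0 CPM in both WT intestine libraries, so they were at least 2046-fold higher and at least 1002-fold higher. Hdc, the enzyme that makes histamine, had 129 and 115 CPM in WT marrow, against 5.56 and 6.65 CPM in WT intestine, and rose by 4.32 ± 0.16 log2 units. Mcpt8, the basophil protease, had 52.6 and 35.5 CPM in WT marrow, against 0.134 and 0 CPM in WT intestine. The members that fell were the proteases of mucosal mast cells: Mcpt1 had 0 CPM in both WT marrow libraries, against 2.21 and 2.22 CPM in WT intestine, and was at least 43.0-fold lower, and Mcpt2 had 0 CPM in both WT marrow libraries, against 1.68 and 0.924 CPM in WT intestine, and was at least 26.4-fold lower.

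Monocyte, macrophage and dendritic cell genes gave 8 rises and 5 falls among 17 tested, or 47.1% and 29.4% of them, beside 39.9% and 39.1% of all genes tested. Ly6c2, the monocyte antigen, had 552 and 360.1 CPM in WT marrow, against 0.268 and 0.0924 CPM in WT intestine, with a log2 fold change of 11.16 ± 0.45. Cx3cr1, a chemokine receptor of monocytes, had 19.7 and 14.5 CPM in WT marrow, against 0.268 and 0.0924 CPM in WT intestine. Other members were lower in marrow. C1qa, a complement chain, had 0.209 and 0.372 CPM in WT marrow, against 1.54 and 1.02 CPM in WT intestine. Ctss, the lysosomal cathepsin S, had 36.3 and 22.6 CPM in WT marrow, against 261 and 349 CPM in WT intestine. C1qa was near the count floor in all 4 libraries, whereas Ctss was well above it in each. The 5 falls numbered 3 without either marrow library or without intestine mouse WT.1476.

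Of 11 tested MHC class II genes, 4 rose, 4 fell and 3 were not called, and the intestine mice differed. The rises and the falls were 36.4% each, beside 39.9% and 39.1% of all genes tested, so these counts are no result about the list. The chains that present peptide, H2-Aa, H2-Ab1 and H2-Eb1, and Cd74, the invariant chain that guides them, fell. H2-Ab1 had 22.7 and 31.5 CPM in WT marrow, against 269.8 and 72.4 CPM in WT intestine, a log2 fold change of -2.66 ± 0.63 (adjusted p = 0.0109). Cd74 had 42.2 and 59.0 CPM in WT marrow, against 476 and 147 CPM in WT intestine, with a log2 fold change of -2.62 ± 0.57. Intestine mouse WT.1476 was the higher one in all 4, and the calls of H2-Aa, H2-Ab1 and Cd74 were lost without either marrow library, as was that of H2-Eb1 without mouse WT.1262. With library size alone H2-Aa was at -1.35 and H2-Ab1 at -1.80, and neither was called. Without a filter on low counts, none of the 4 falls was called. H2-Oa, H2-Ob, H2-DMb2 and Rfx5 rose: H2-Ob, a chain of H2-O, which restrains loading, had 18.3 and 18.8 CPM in WT marrow, against 0.0670 and 0.0924 CPM in WT intestine, and Rfx5, a factor that binds class II promoters, had 26.7 and 25.3 CPM in WT marrow, against 11.2 and 8.13 CPM in WT intestine. H2-DMa, a chain of the loading catalyst, had 47.2 and 39.6 CPM in WT marrow, against 29.7 and 11.8 CPM in WT intestine, and was not called.

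B lineage genes rose in 19 of 21 tested cases. Dntt, the polymerase that adds bases at antigen receptor joints, had 61.7 and 46.4 CPM in WT marrow, against 0.201 and 0 CPM in WT intestine. Ighm, the mu heavy chain, had 480.2 and 963 CPM in WT marrow, against 3.82 and 5.92 CPM in WT intestine, and rose by 7.23 ± 0.50 log2 units. Igkc, the kappa light chain, had 124 and 241 CPM in WT marrow, against 16.0 and 3.05 CPM in WT intestine, and rose by 4.21 ± 0.74 log2 units. In both immunoglobulin genes marrow mouse WT.1266 was the higher one, while early B genes ran the other way: Rag1, the recombinase, had 8.58 and 1.96 CPM in WT marrow, and Igll1, of the surrogate light chain, 9.17 and 2.33 CPM in WT marrow. Both were listed at 0 in intestine. Blnk, an adaptor below the B cell receptor, was the member that fell, with 8.61 and 2.67 CPM in WT marrow, against 45.4 and 51.1 CPM in WT intestine, a log2 fold change of -3.10 ± 0.53.

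T and NK cell genes were mostly lower in marrow, with 6 rises and 15 falls among 22 tested. Gzma, granzyme A of cytotoxic lymphocytes, had 0.105 and 0.372 CPM in WT marrow, against 247 and 243 CPM in WT intestine, with a log2 fold change of -9.96 ± 0.34 (adjusted p = 1.42e-05). Gzmb, granzyme B, had 1.78 and 2.06 CPM in WT marrow, against 89.2 and 81.9 CPM in WT intestine. Cd8a, the co-receptor chain of cytotoxic T cells, had 0.349 and 0.135 CPM in WT marrow, against 44.0 and 58.0 CPM in WT intestine, and Cd3g, a chain of the T cell receptor complex, 0.349 and 0.338 CPM in WT marrow, against 27.5 and 30.9 CPM in WT intestine. Ccl5, a chemokine of activated lymphocytes, had 2.16 and 2.60 CPM in WT marrow, against 60.0 and 70.0 CPM in WT intestine, and Itgae, the integrin chain that binds epithelial cadherin, 1.05 and 1.52 CPM in WT marrow, against 33.4 and 28.1 CPM in WT intestine. The intestine mice were close to each other for all of these. The members that rose were Lat, Klrk1, Cd4, Cd2, Cd5 and Eomes, and apart from Lat and Klrk1 all stayed below 2 CPM in marrow. These 6 rises numbered 2 or 3 without any 1 of the 4 libraries, and 3 with DESeq2. Klrk1, the NK receptor NKG2D, had 6.59 and 5.30 CPM in WT marrow, against 0.134 and 0 CPM in WT intestine. In bulk samples, fewer cells of a type and less RNA per cell cannot be told apart, here and in every list below.

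**Figure D2:**
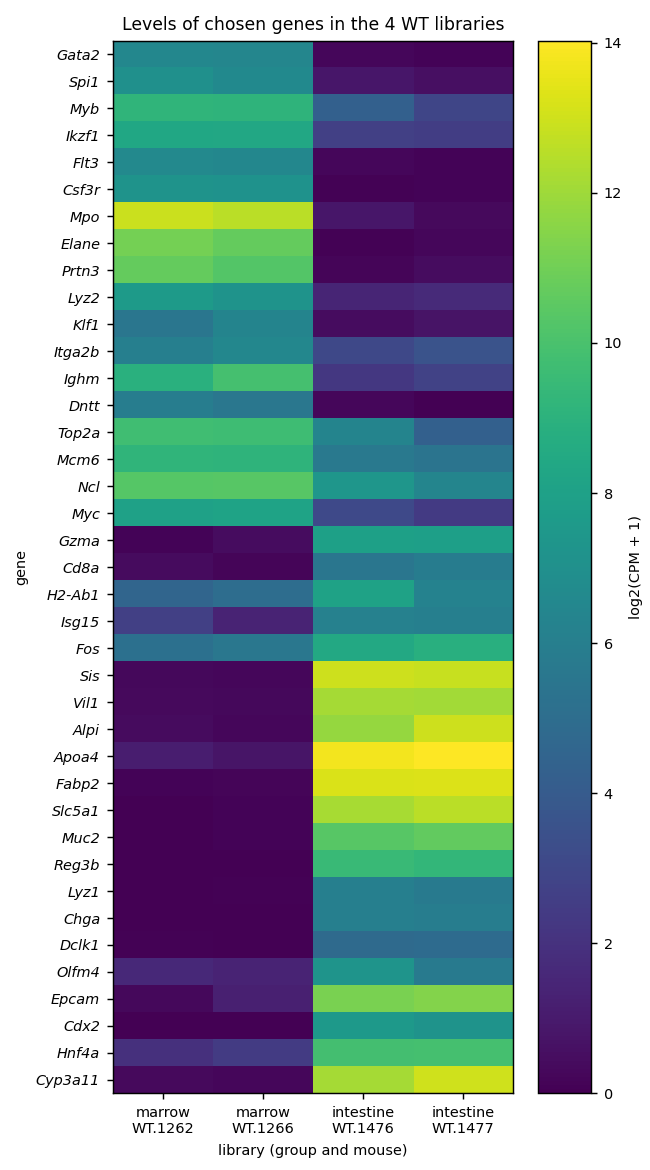
The colour shows log2(CPM + 1) of 39 genes (rows) in the 4 WT libraries (columns), to be read along each row. The blood and cycle genes in the upper rows are bright in marrow and the epithelial genes in the lower rows are bright in intestine, as with Mpo and Sis, while H2-Ab1 and Top2a differ between the intestine mice.

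All 32 transcription factors listed for the intestinal epithelium fell, with a median log2 fold change of -10.24 as fitted and -9.25 with bounds. Hnf4a, a nuclear receptor of enterocyte genes, had 2.89 and 4.42 CPM in WT marrow, against 924 and 939 CPM in WT intestine, with a log2 fold change of -7.99 ± 0.29 (adjusted p = 1.53e-05). Its relative Hnf4g had 0 CPM in both WT marrow libraries, against 1294 and 1452 CPM in WT intestine, and was at least 26432-fold lower. Cdx2, the factor that sets intestinal identity, had 0 CPM in both WT marrow libraries, against 188 and 145 CPM in WT intestine, and was at least 3297-fold lower. Vdr, the vitamin D receptor, had 9.24 and 7.13 CPM in WT marrow, against 799 and 1271 CPM in WT intestine, and Maf, a leucine zipper factor, had 1.60 and 1.49 CPM in WT marrow, against 749.7 and 768 CPM in WT intestine. Atoh1, the factor of secretory cells, had 0 CPM in both WT marrow libraries, against 17.0 and 14.9 CPM in WT intestine, and Gata4, a factor of the upper small intestine, had 0 CPM in both WT marrow libraries, against 219 and 265 CPM in WT intestine. Klf4, a factor of mature epithelium that myeloid cells also use, kept 30.8 and 22.2 CPM in WT marrow, against 440.4 and 673 CPM in WT intestine, with a log2 fold change of -4.39 ± 0.31.

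Brush border enzymes and scaffold proteins fell in all 24 cases. The list took 0.0281% and 0.0206% of all gene counts in WT marrow, against 4.89% and 4.76% in WT intestine. Sis, sucrase-isomaltase, had 0.209 and 0.203 CPM in WT marrow, against 8086 and 7304 CPM in WT intestine, with a log2 fold change of -15.15 ± 0.34 (adjusted p = 1.03e-05). Anpep, aminopeptidase N, had 2.61 and 2.77 CPM in WT marrow, against 9537 and 7282 CPM in WT intestine, and Lct, lactase, had 0.662 and 1.01 CPM in WT marrow, against 4479.6 and 4724 CPM in WT intestine. Vil1, the actin bundler villin, had 0.279 and 0.236 CPM in WT marrow, against 4472 and 4402 CPM in WT intestine, with a log2 fold change of -14.04 ± 0.31. Each of these was below 3 CPM in both marrow libraries. Alpi, intestinal alkaline phosphatase, had 0.314 and 0.169 CPM in WT marrow, against 3541 and 8079 CPM in WT intestine, and Tmprss15, enteropeptidase, had 0 CPM in both WT marrow libraries, against 338 and 898 CPM in WT intestine, so intestine mouse WT.1477 was more than 2 times as high as mouse WT.1476 in both. The smallest falls of the list were those of Mgam, maltase-glucoamylase, at 74.7 and 45.5 CPM in WT marrow, Dpp4, a dipeptidase also found on lymphocytes, at 52.1 and 34.7 CPM in WT marrow, and Slc9a3r1, the scaffold EBP50, at 69.2 and 56.0 CPM in WT marrow. Their log2 fold changes were -6.20 ± 0.35, -5.04 ± 0.28 and -4.86 ± 0.21.

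Of 28 nutrient transporters, 27 fell and 1 was not called. Slc5a1, the sodium glucose cotransporter SGLT1, had 0.0349 and 0.101 CPM in WT marrow, against 4663 and 6005 CPM in WT intestine, with a log2 fold change of -16.13 ± 0.46. Slc6a19, the transporter of neutral amino acids, had 0.174 and 0.236 CPM in WT marrow, against 1809 and 2263 CPM in WT intestine. Slc26a6, an anion exchanger, had 7.18 and 5.30 CPM in WT marrow, against 908 and 1295 CPM in WT intestine. Slc40a1, the iron exporter ferroportin, had 45.9 and 61.7 CPM in WT marrow, against 63.9 and 589 CPM in WT intestine, and was not called (adjusted p = 0.0536), and intestine mouse WT.1476 lay close to marrow. Slc11a2, the iron importer DMT1, which red cell precursors also need, fell by less than most, with 44.0 and 62.2 CPM in WT marrow, against 146 and 258 CPM in WT intestine, a log2 fold change of -1.93 ± 0.32.

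Genes of lipid absorption took 0.0785% and 0.0869% of all gene counts in WT marrow, against 6.23% and 6.06% in WT intestine. Of 27 tested members, 25 fell, 1 rose and 1 was not called. Apoa4, an apolipoprotein of chylomicrons, had 1.15 and 0.743 CPM in WT marrow, against 13886 and 16700.5 CPM in WT intestine, with a log2 fold change of -13.97 ± 0.42 (adjusted p = 1.13e-05). Apoa1 had 0.453 and 0.507 CPM in WT marrow, against 12177 and 13124 CPM in WT intestine, and Apob, the structural protein of chylomicrons, had 1.99 and 1.93 CPM in WT marrow, against 11294 and 11741 CPM in WT intestine. Fabp2, the intestinal fatty acid binding protein, had 0.105 and 0.135 CPM in WT marrow, against 9721 and 10013 CPM in WT intestine, with a log2 fold change of -16.26 ± 0.36. The intestine mice were close to each other for these 4 genes. Mgll, a monoglyceride lipase, was the member that rose, with 9.34 and 16.0 CPM in WT marrow, against 4.49 and 3.33 CPM in WT intestine, a log2 fold change of 1.69 ± 0.36, and the call was lost without marrow mouse WT.1266. Scarb1, the HDL receptor, had 104 and 89.3 CPM in WT marrow, against 40.6 and 122 CPM in WT intestine, and was not called. Fabp6 and Slc10a2, which carry bile acids in the ileum, were low in intestine too, at 0.335 and 0 CPM in WT intestine for Fabp6 and 1.14 and 1.66 CPM in WT intestine for Slc10a2.

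The starts of Sis, Apoa4 and Fabp2 are shown as 3 abundant enterocyte genes that were lower in marrow. Capitals mark GTTAAT, letters of the HNF1 site, and TTTATNG, letters of the CDX site, on either strand, and the windows and build are as above. They are Sis at chr3:72967814-72968113, minus strand, Apoa4 at chr9:46240594-46240893, plus strand and Fabp2 at chr3:122894822-122895121, plus strand.
Sis: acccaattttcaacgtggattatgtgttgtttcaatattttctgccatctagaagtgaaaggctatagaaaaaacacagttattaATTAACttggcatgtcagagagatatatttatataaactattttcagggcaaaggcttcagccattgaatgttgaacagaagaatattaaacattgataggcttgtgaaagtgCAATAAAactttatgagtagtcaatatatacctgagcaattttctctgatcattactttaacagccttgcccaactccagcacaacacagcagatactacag
Apoa4: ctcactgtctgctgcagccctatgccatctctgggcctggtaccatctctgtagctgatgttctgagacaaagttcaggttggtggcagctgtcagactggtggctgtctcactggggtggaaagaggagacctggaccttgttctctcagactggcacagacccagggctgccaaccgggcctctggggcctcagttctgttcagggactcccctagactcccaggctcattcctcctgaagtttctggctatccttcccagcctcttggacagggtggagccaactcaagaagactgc
Fabp2: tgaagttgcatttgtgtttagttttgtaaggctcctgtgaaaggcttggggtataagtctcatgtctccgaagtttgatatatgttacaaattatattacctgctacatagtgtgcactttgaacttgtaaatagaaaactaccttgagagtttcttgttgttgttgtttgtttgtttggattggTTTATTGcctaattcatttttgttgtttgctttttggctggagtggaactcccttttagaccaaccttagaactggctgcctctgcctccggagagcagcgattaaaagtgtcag

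The Sis window held 1 match of each and the Fabp2 window 1 CDX match, while the Apoa4 window held none. GTTAAT was in 4 of 30 (13.3%) windows of brush border genes, 204 of 2973 (6.86%) of genes at least 4-fold lower in marrow, 123 of 2596 (4.74%) of genes at least 4-fold higher and 625 of 13057 (4.79%) of all. TTTATNG was in 7 of 22 (31.8%) windows of lipid genes, but also in 6 of 21 (28.6%) of granule genes, against 909 of 13057 (6.96%) of all. It was in 256 of 2973 (8.61%) windows of genes at least 4-fold lower in marrow and 174 of 2596 (6.70%) of genes at least 4-fold higher. CAAAGTCCA, letters of the HNF4 site, was in 37 of 2973 (1.24%) windows of genes at least 4-fold lower in marrow, 8 of 2596 (0.308%) of genes at least 4-fold higher and 70 of 13057 (0.536%) of all. Of the list windows, it was in 2 of 30 of brush border genes and 0 of 22 of lipid genes.

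Secretory cell genes fell with the enterocyte genes. Goblet cell genes fell in 17 of 18 tested cases: Fcgbp, a mucus protein, had 0.0349 and 0.0338 CPM in WT marrow, against 6389 and 6628 CPM in WT intestine, Zg16, a lectin of mucus granules, had 1.74 and 1.89 CPM in WT marrow, against 3711 and 4899 CPM in WT intestine, and Muc13, a membrane mucin, had 97.4 and 107 CPM in WT marrow, against 4038 and 5319 CPM in WT intestine. Muc13 thus kept about 100 CPM in marrow, with a log2 fold change of -5.52 ± 0.26. St6galnac1, a sialyltransferase, was the member that rose, with 10.04 and 10.1 CPM in WT marrow, against 0.0670 and 1.29 CPM in WT intestine, a call lost without either marrow library. It had no count in any of the 4 marrow libraries of the K9M and K36M mice. All 16 tested Paneth cell and antimicrobial genes fell, of 24 listed, and all 9 listed alpha-defensins had no count in marrow. The list summed to 1.60 and 2.26 CPM in WT marrow, so members passed the filter mainly through intestine, and the count of falls was largely fixed by the filter. Pigr, which carries IgA across the epithelium, had 0.244 and 0.304 CPM in WT marrow, against 10122 and 11158 CPM in WT intestine. Reg1 had 0.0697 and 0 CPM in WT marrow, against 2728 and 5214 CPM in WT intestine, and Reg3b, a lectin that binds bacteria, had 0 and 0.0338 CPM in WT marrow, against 719.7 and 630.3 CPM in WT intestine. The alpha-defensins of Paneth cells were low in intestine as well, the highest being Defa24 with 59.1 and 26.1 CPM in WT intestine, and their near-identical copies make these counts uncertain.

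Enteroendocrine genes fell in all 19 tested cases of 22 listed, and their marrow sum was 0.697 and 1.28 CPM, against 595 and 621 CPM in intestine. With so little in marrow, members passed the filter mainly through intestine, so the count of falls was largely fixed by the filter. Gip, the hormone of K cells, had 0 CPM in both WT marrow libraries, against 121 and 144 CPM in WT intestine, and was at least 2547-fold lower. Chgb, a protein of hormone granules, had 0 CPM in both WT marrow libraries, against 106 and 86.2 CPM in WT intestine, and was at least 1899-fold lower. Both genes were listed at 0 in marrow and were close between the intestine mice.

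Tuft cell genes were divided, with 7 rises and 9 falls among 17 tested, or 41.2% and 52.9%, beside 39.9% and 39.1% of all genes tested. Members that rose included genes that leukocytes also use: Plcb2, a phospholipase below receptors, had 207 and 186 CPM in WT marrow, against 4.56 and 4.34 CPM in WT intestine, and rose by 5.46 ± 0.15 log2 units, Alox5ap, the partner of leukotriene synthesis, had 138 and 111 CPM in WT marrow, against 6.64 and 8.04 CPM in WT intestine, and rose by 4.09 ± 0.19 log2 units, and Ptgs1, cyclooxygenase 1, rose by 2.91 ± 0.16 log2 units. Dclk1 and Trpm5, a kinase and a channel that mark tuft cells, fell: Trpm5 had 0.174 and 0.169 CPM in WT marrow, against 29.0 and 31.9 CPM in WT intestine, a log2 fold change of -7.42 ± 0.25, and Dclk1 had 0.0697 and 0 CPM in WT marrow, against 27.8 and 28.8 CPM in WT intestine.

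Crypt stem cell genes gave 4 rises and 12 falls among 22 tested. Olfm4, a crypt base marker, had 2.09 and 1.62 CPM in WT marrow, against 153 and 54.2 CPM in WT intestine, with a log2 fold change of -5.80 ± 0.61. Lgr5, a receptor that marks crypt stem cells, had 0.662 and 0.135 CPM in WT marrow, against 0.603 and 1.11 CPM in WT intestine, and was not called (adjusted p = 0.274). Lgr4, its relative, had 2.54 and 2.16 CPM in WT marrow, against 106 and 90.8 CPM in WT intestine, and fell, with a log2 fold change of -5.38 ± 0.18. The members that rose were Cd44, an adhesion receptor of many blood cells, by 4.78 ± 0.27 log2 units, Cdca7, a cell cycle target, by 3.27 ± 0.21 log2 units, Znrf3, a ubiquitin ligase of Wnt receptors, by 1.31 ± 0.34 log2 units, and Bmi1, a Polycomb protein, by 0.96 ± 0.13 log2 units. Olfm4 in intestine mouse WT.1476 was above that in mouse WT.1477.

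Junction and keratin genes of epithelia fell in all 35 tested cases. Lgals4, an epithelial galectin, had 6.14 and 7.60 CPM in WT marrow, against 3433 and 3190.3 CPM in WT intestine, a log2 fold change of -8.91 ± 0.26. Krt20 had 0.244 and 0.169 CPM in WT marrow, against 3284 and 4283 CPM in WT intestine, and Krt8 had 0.593 and 0.540 CPM in WT marrow, against 2718 and 2674 CPM in WT intestine, and both are keratins of simple epithelium. Epcam had 0.209 and 1.32 CPM in WT marrow, against 2345 and 2732 CPM in WT intestine, and marrow mouse WT.1266 was the higher marrow mouse there. The smallest fall was that of Itga6, the alpha 6 integrin, which had 86.4 and 62.3 CPM in WT marrow, against 251 and 339.8 CPM in WT intestine, a log2 fold change of -1.99 ± 0.24.

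Of 33 tested genes of drug, retinoid and bile acid metabolism, 32 fell. Cyp3a11, a cytochrome that oxidises drugs, had 0.279 and 0.203 CPM in WT marrow, against 4563 and 8125 CPM in WT intestine, with a log2 fold change of -14.65 ± 0.57. Cyp3a13 had 0.139 and 0.203 CPM in WT marrow, against 2917 and 4782 CPM in WT intestine, and Ces2e, a carboxylesterase, 0.0697 and 0.101 CPM in WT marrow, against 2489 and 2914 CPM in WT intestine. Ugt2b34, which conjugates steroids and drugs, had 0 CPM in both WT marrow libraries, against 2079 and 2851 CPM in WT intestine, and was at least 46709-fold lower. Mouse WT.1477 was the higher intestine mouse in each of these. Reads of the Cyp3a, Ces2 and Ugt2b copies may be divided or dropped, so single members are uncertain. Gstm1, a glutathione transferase of many tissues, was not called, with 250.3 and 184 CPM in WT marrow, against 266 and 452 CPM in WT intestine.

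Sugar and ketone metabolism genes were mostly lower in marrow. Of 25 tested genes, 5 rose and 17 fell. Pck1, an enzyme of glucose synthesis, had 0.0349 and 0.0676 CPM in WT marrow, against 855 and 1114 CPM in WT intestine. Ldha had 432 and 449 CPM in WT marrow, against 2095 and 2373 CPM in WT intestine, and fell, with a log2 fold change of -2.34 ± 0.17, while Ldhb rose by 4.35 ± 0.57 log2 units, with 29.8 and 23.7 CPM in WT marrow, against 2.08 and 0.370 CPM in WT intestine, and these are the lactate dehydrogenase chains. Hk3, the hexokinase of granulocytes, had 390.1 and 302 CPM in WT marrow, against 0.335 and 0.370 CPM in WT intestine, and rose by 9.92 ± 0.28 log2 units. Gapdh, often taken as a steady gene, had 528 and 474 CPM in WT marrow, against 1071 and 1498 CPM in WT intestine, and fell, with a log2 fold change of -1.36 ± 0.22.

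Of 9 tested connective tissue, vessel and neural genes, 5 rose, 2 fell and 2 were not called, and the other 15 of 24 listed did not pass the filter. The summed level was 602 and 470 CPM in WT marrow, most of it from Vim, against 39.5 and 22.1 CPM in WT intestine. Vim, the filament protein of mesenchyme and leukocytes, had 466 and 357 CPM in WT marrow, against 4.83 and 4.44 CPM in WT intestine, and rose by 6.47 ± 0.22 log2 units. Pecam1, shared by endothelium and blood cells, had 91.8 and 68.2 CPM in WT marrow, against 0.738 and 1.20 CPM in WT intestine. Lyve1, a lymphatic vessel receptor, fell, with 0 CPM in both WT marrow libraries, against 6.03 and 4.81 CPM in WT intestine.

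Genes of dividing and growing cells rose together. All 32 mitosis genes rose, with a median log2 fold change of 3.44, and so did 38 of 39 DNA replication genes, with 3.39, and all 29 ribosome assembly genes, with 3.20. Mitosis genes summed to 5374 and 5347 CPM in WT marrow, against 685 and 254 CPM in WT intestine. Intestine mouse WT.1476 was thus above mouse WT.1477, and both marrow mice were higher than either. Mki67, the proliferation marker, had 1025 and 1024 CPM in WT marrow, against 116 and 36.9 CPM in WT intestine, and Top2a, topoisomerase II, had 851 and 818 CPM in WT marrow, against 79.8 and 18.9 CPM in WT intestine, a rise of 4.07 ± 0.69 log2 units (adjusted p = 0.00299). Mcm6, a subunit of the replicative helicase, had 576 and 554 CPM in WT marrow, against 50.9 and 41.7 CPM in WT intestine, and rose by 3.61 ± 0.17 log2 units, and Rrm1, which makes deoxynucleotides, had 423 and 471 CPM in WT marrow, against 28.2 and 9.89 CPM in WT intestine. Ncl and Npm1, nucleolar proteins, had 1281 and 1327 CPM in WT marrow, against 163 and 83.2 CPM in WT intestine, and 980.0 and 1048 CPM in WT marrow, against 126 and 81.0 CPM in WT intestine. Myc, which drives ribosome synthesis, had 262 and 281 CPM in WT marrow, against 7.71 and 4.16 CPM in WT intestine, and rose by 5.49 ± 0.30 log2 units.

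**Figure D3:**
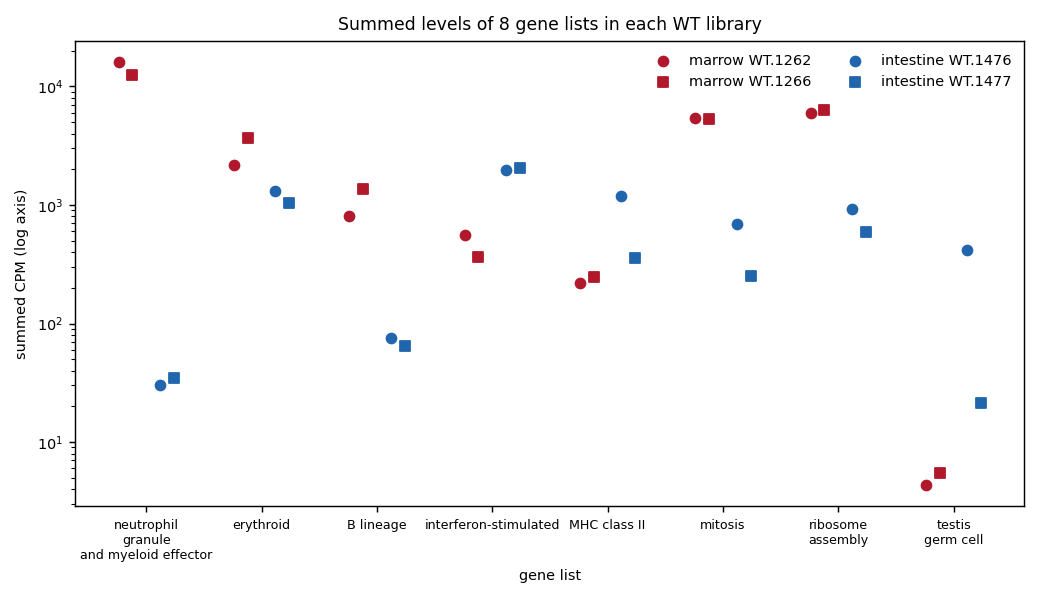
Summed CPM (log axis) of 8 gene lists is plotted for each WT library, marrow in red and intestine in blue. Mitosis genes are at 5374 and 5347 CPM in marrow, against 685 and 254 CPM in intestine, and testis germ cell genes are at 414 CPM in intestine mouse WT.1476, against 21.2 CPM in mouse WT.1477.

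Of 20 tested genes of H3K9 methylation, 15 rose and 1 fell, and of 20 of H3K36 methylation, 14 rose and 2 fell, with median log2 fold changes of 1.14 and 1.08. With library size alone these medians were 2.03 and 1.97, where that of all tested genes was 0.95. Of the 20 genes in each list, 6 and 7 were at least 4-fold higher, where the share of all tested genes was 21%. Dnmt1, the maintenance DNA methyltransferase, had 561 and 555 CPM in WT marrow, against 31.2 and 10.9 CPM in WT intestine, and Uhrf1, its partner that reads H3K9 methylation, had 248 and 261 CPM in WT marrow, against 13.7 and 5.18 CPM in WT intestine, both with the intestine difference of the mitosis genes. Cbx5, the heterochromatin protein HP1 alpha, had 366 and 411 CPM in WT marrow, against 59.1 and 33.3 CPM in WT intestine, and rose by 3.07 ± 0.30 log2 units, and Trim28, a corepressor, had 473 and 480.2 CPM in WT marrow, against 104 and 78.7 CPM in WT intestine, and rose by 2.38 ± 0.18 log2 units. Kdm3a, an H3K9 demethylase, fell, with a log2 fold change of -0.62 ± 0.12, and Kdm2a, an H3K36 demethylase, fell, with a log2 fold change of -0.49 ± 0.14, but with library size alone these were 0.27 and 0.41. Nsd1, an H3K36 methyltransferase, had 263 and 256 CPM in WT marrow, against 222 and 204 CPM in WT intestine, and was not called, whereas its relative Nsd2 had 245 and 219 CPM in WT marrow, against 53.8 and 45.8 CPM in WT intestine, and rose by 2.22 ± 0.15 log2 units. Phf1, a reader of H3K36 methylation, fell, with 10.1 and 13.3 CPM in WT marrow, against 77.5 and 97.3 CPM in WT intestine, a log2 fold change of -2.90 ± 0.21. Dnmt3b, a de novo DNA methyltransferase, had 45.1 and 41.2 CPM in WT marrow, against 1.54 and 1.29 CPM in WT intestine, and rose by 4.91 ± 0.20 log2 units.

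Polycomb genes gave 12 rises and 3 falls among 22 tested, with a median log2 fold change of 0.62, and the falls numbered 1 with library size alone and 5 with RLE size factors. Rbbp4, a histone-binding subunit, had 298 and 284 CPM in WT marrow, against 65.2 and 60.7 CPM in WT intestine, and rose by 2.21 ± 0.13 log2 units, and Cbx6, a chromodomain subunit, had 57.8 and 64.7 CPM in WT marrow, against 4.76 and 2.96 CPM in WT intestine, and rose by 3.96 ± 0.25 log2 units. Pcgf2 and Pcgf3 fell, with log2 fold changes of -1.27 ± 0.22 and -1.19 ± 0.12, but Pcgf2 was at -0.37 and not called with library size alone. Of the genes for histone H3.3, H3f3a had 154 and 134 CPM in WT marrow, against 471 and 505 CPM in WT intestine, and fell, with a log2 fold change of -1.76 ± 0.15 (adjusted p = 2.13e-04), while H3f3b had 359 and 352 CPM in WT marrow, against 412 and 379 CPM in WT intestine, and was not called (adjusted p = 0.334), and both have processed copies that can draw reads. Chaf1a and Chaf1b, subunits of the replication-coupled histone chaperone, rose by 3.56 ± 0.31 and 4.44 ± 0.37 log2 units. Hox genes, which pattern the body axis, passed the filter in 10 of 38 cases, of which 7 rose and none fell. The 38 genes summed to 48.4 and 50.2 CPM in WT marrow, against 9.39 and 4.34 CPM in WT intestine. Members thus passed the filter mainly through marrow, which favours rises, so these counts are no result about the list. Hoxa9, a factor of blood progenitors, had 15.0 and 16.8 CPM in WT marrow, against 1.41 and 0.277 CPM in WT intestine, and rose by 4.14 ± 0.57 log2 units, Hoxa7 had 8.75 and 7.03 CPM in WT marrow, against 0.805 and 0.277 CPM in WT intestine, and Hoxb4 had 13.5 and 13.8 CPM in WT marrow, against 1.54 and 0.185 CPM in WT intestine. The Hox calls numbered 4 without either marrow library.

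Interferon-stimulated genes were lower in marrow in 18 of 22 cases, and 2 rose, with a median log2 fold change of -2.25. With library size alone 13 were lower and 2 higher, with a median of -1.36, so some of these falls depend on the scaling. Irf7, the factor that amplifies interferon, had 16.1 and 7.33 CPM in WT marrow, against 281 and 289 CPM in WT intestine, a log2 fold change of -4.60 ± 0.40 (adjusted p = 2.43e-04). Ifit1, a sensor of viral RNA, had 3.66 and 1.79 CPM in WT marrow, against 181 and 178 CPM in WT intestine, Oasl2 had 16.5 and 7.09 CPM in WT marrow, against 198 and 216 CPM in WT intestine, and Ifih1, an RNA helicase, had 42.3 and 33.0 CPM in WT marrow, against 193 and 231 CPM in WT intestine. Marrow mouse WT.1262 was above mouse WT.1266 for all 4, and the list summed to 553 and 361 CPM in WT marrow, against 1992 and 2033 CPM in WT intestine. Ifit2 and Bst2 rose, by 2.04 ± 0.23 and 1.62 ± 0.22 log2 units. Immediate early and heat shock genes gave 2 rises, 9 falls and 9 genes without a call among 20 tested. The rises and falls were 10% and 45% of them, beside 39.9% and 39.1% of all genes tested, so the count of falls is no result about the list. Fos, of the AP-1 factor, had 35.3 and 46.2 CPM in WT marrow, against 352 and 454 CPM in WT intestine, a log2 fold change of -3.31 ± 0.22, Klf6 had 31.3 and 24.1 CPM in WT marrow, against 367 and 494 CPM in WT intestine, and Zfp36, which destroys cytokine mRNAs, had 25.9 and 25.8 CPM in WT marrow, against 318 and 404 CPM in WT intestine. Atf3, a stress factor, had 0.174 and 0.169 CPM in WT marrow, against 50.8 and 70.1 CPM in WT intestine, a log2 fold change of -8.41 ± 0.31. Egr1, Ier2 and Dusp1, of the same early response, were not called. The median log2 fold change of this list was -0.70, and 0.20 with library size alone. Hsph1, a chaperone, rose by 2.40 ± 0.25 log2 units.

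Spermatid genes stood out in 1 intestine library. The 10 listed germ cell genes summed to 4.32 and 5.44 CPM in WT marrow, against 414 and 21.2 CPM in WT intestine, so mouse WT.1476 stood apart, and on a scaling over all 18 libraries its sum was 2.72% of the mean of WT testes. Prm2, a protamine, had 0.0697 and 0.101 CPM in WT marrow, against 96.4 and 2.96 CPM in WT intestine, and mouse WT.1476 was the higher intestine mouse for all 8 members that fell. None of these 8 calls was made without either marrow library. In the WT testes, from mice with the same numbers as the intestine libraries, the list was at 16717 and 16916 CPM. Without the genes that are at least 10 times as high in testes as in intestine, 9507 of 11823 tested genes were called, against 11189 of 14167, and 1973 were at least 4-fold higher, against 2978. That rule used the WT intestine libraries compared here, so it favours leaving out genes that are low in intestine. The drop in genes higher in marrow is therefore partly built in and does not measure testis RNA. Intestine mouse WT.1476 was also the higher one for mitosis and MHC class II genes, as given above. On the scaling over all 18 libraries, WT testes had 7.60 and 7.05 CPM of Cd74, 77.5 and 73.7 CPM of Mki67 and 246 and 229 CPM of Top2a. The part of testis RNA in the differences between the intestine mice was not tested.

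Blood and other forms of related genes were set side by side. Of 29 pairs, listed as a form used by blood cells and a form used elsewhere, the blood form was higher in marrow in 24 and lower in 2, and the other form was lower in 23 and higher in 2. The calls were opposite in 18 pairs, and in 16 with library size alone as the scaling, where the other form was higher in 7 pairs and lower in 18. The difference of log2 fold changes, blood form minus other form, was above 0 in all 29 pairs, with a median of 6.01 and a lowest value of 0.40, and the choice of pairs favours this direction. Among actin regulators, Lcp1, L-plastin, had 615 and 482 CPM in WT marrow, against 28.8 and 27.5 CPM in WT intestine, while Pls1, the plastin of microvilli, had 0.627 and 0.912 CPM in WT marrow, against 2704 and 2992 CPM in WT intestine. Their log2 fold changes were 4.29 ± 0.19 and -11.84 ± 0.32. Myo1g, a myosin of blood cells, had 139 and 112 CPM in WT marrow, against 4.22 and 4.16 CPM in WT intestine, and Myo1a, the brush border myosin, 0.314 and 0.270 CPM in WT marrow, against 2289 and 2101 CPM in WT intestine. Nckap1l and Nckap1 are the alternative subunits of the WAVE complex: Nckap1l had 277 and 219.7 CPM in WT marrow, against 5.56 and 4.81 CPM in WT intestine, and Nckap1 had 14.8 and 25.6 CPM in WT marrow, against 330.1 and 353 CPM in WT intestine.

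Signalling proteins came next. Rac2 had 361 and 289 CPM in WT marrow, against 19.6 and 21.1 CPM in WT intestine, while Rac1 had 261 and 221 CPM in WT marrow, against 517 and 629.9 CPM in WT intestine, with a log2 fold change of -1.25 ± 0.18 for the widely expressed Rac1, which was -0.35 and not called with library size alone. Inpp5d, the phosphatase SHIP1, rose by 4.10 ± 0.16 log2 units and Inppl1, SHIP2, fell, with a log2 fold change of -4.45 ± 0.16. Both phosphatases Ptpn6 and Ptpn11 rose, by 1.41 ± 0.14 and 1.01 ± 0.12 log2 units, as did both exchange factors Vav1 and Vav3, by 4.02 ± 0.17 and 2.03 ± 0.25 log2 units. Pkm and Pklr, the pyruvate kinase genes, both fell, with log2 fold changes of -1.56 ± 0.18 and -3.03 ± 0.37, and so did the acyl-CoA synthetases Acsl1 and Acsl5, with log2 fold changes of -0.77 ± 0.15 and -3.67 ± 0.19, of which Acsl1 turned to 0.13 with library size alone. Arhgdia and Gmfb, which also fell, turned to 0.29 and 0.39 in that setting. Arpc1b, Lyn and Slc2a1 were the blood forms without a call, with log2 fold changes of 0.32 ± 0.15, -0.36 ± 0.16 and -0.02 ± 0.30. In the chromatin and nuclear envelope pairs, Ezh2 rose by 2.44 ± 0.18 log2 units and Ezh1 fell, with a log2 fold change of -1.15 ± 0.12, and Lmnb1 rose by 3.73 ± 0.39 log2 units and Lmna fell, with a log2 fold change of -1.69 ± 0.30. With library size alone the calls of Ezh1 and Lmna were lost, at -0.26 and -0.80.

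**Figure D4:**
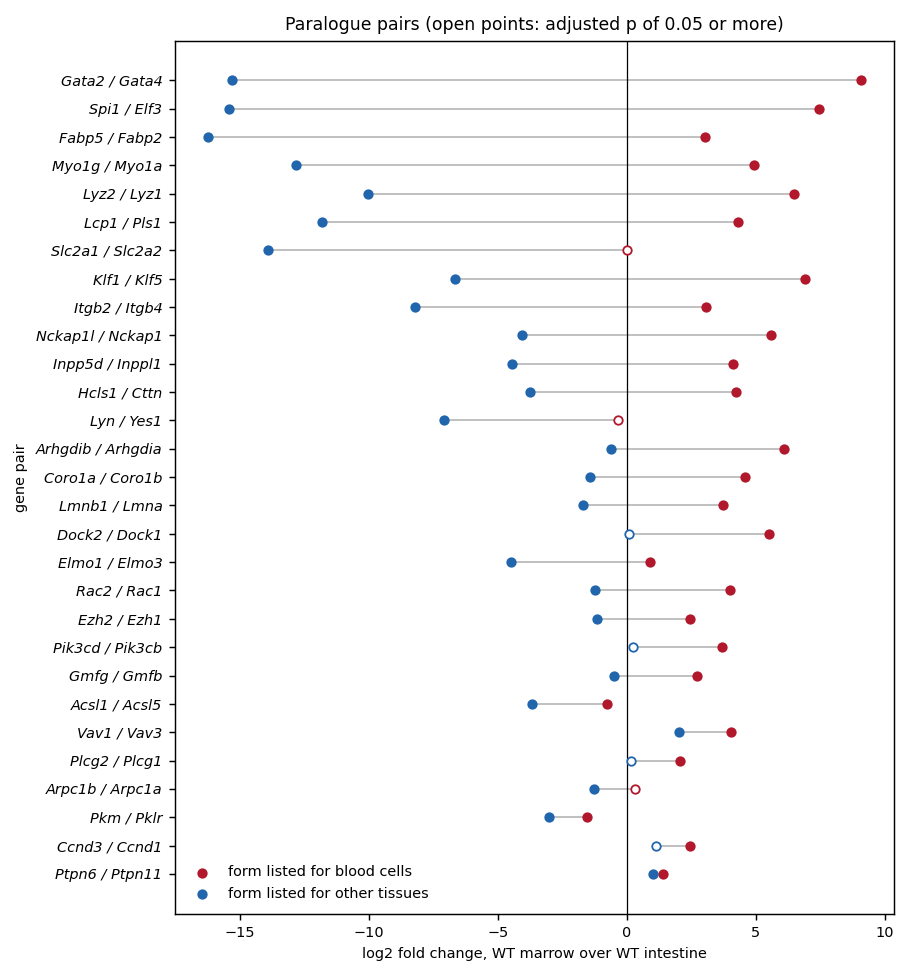
Each row is a pair of related genes and the x axis is the log2 fold change of WT marrow over WT intestine, in red for the form listed for blood cells and in blue for the other form, with open points for genes without a call. The red point lies to the right of the blue one in all 29 pairs, and fitted values of genes with few or no counts in one tissue are no bounds.

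The lysozyme genes are neighbours on chromosome 10. Lyz2, the lysozyme of myeloid cells, had 202 and 149 CPM in WT marrow, against 1.74 and 2.22 CPM in WT intestine, with a log2 fold change of 6.48 ± 0.26. Lyz1, the lysozyme of Paneth cells, had 0.0349 and 0.0676 CPM in WT marrow, against 66.3 and 54.3 CPM in WT intestine, a ratio of counts, intestine over marrow, of 1191-fold (95% counting interval 407 to 5780.0). The genes are similar in sequence, and reads that fit both may have been dropped or misplaced. Their starts, shown because neighbouring copies differed in opposite directions, are at chr10:117282223-117282522, minus strand for Lyz2 and chr10:117292819-117293118, minus strand for Lyz1 on GRCm38.p6, in RefSeq windows as above.
Lyz2: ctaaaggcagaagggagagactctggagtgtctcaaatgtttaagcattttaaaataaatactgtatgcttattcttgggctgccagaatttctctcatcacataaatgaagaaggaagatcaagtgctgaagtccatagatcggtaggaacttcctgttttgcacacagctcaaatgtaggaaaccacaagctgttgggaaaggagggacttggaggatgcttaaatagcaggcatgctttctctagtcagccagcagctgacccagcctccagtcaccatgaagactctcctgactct
Lyz1: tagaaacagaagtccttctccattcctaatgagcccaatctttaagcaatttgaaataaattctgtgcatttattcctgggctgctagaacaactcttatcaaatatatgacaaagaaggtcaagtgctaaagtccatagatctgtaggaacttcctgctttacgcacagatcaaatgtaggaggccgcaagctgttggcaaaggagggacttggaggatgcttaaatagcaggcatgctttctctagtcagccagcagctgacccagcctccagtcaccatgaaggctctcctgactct

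These windows were 81.9% identical in a global alignment, 254 of 310 aligned columns, and neither held any of the 5 sets of letters searched.

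The same tissue contrast was set beside the WT one in K9M and in K36M mice, which share no library with it. Of 14069 genes tested in K9M, 6105 were higher in marrow (43.4%) and 5790 lower (41.2%), and of 14152 tested in K36M, 5069 were higher (35.8%) and 5319 lower (37.6%). Among genes tested in both WT and K9M, 5265 were higher in both, which is 95.0% of the WT and 88.3% of the K9M calls, and 5084 were lower in both, which is 95.7% and 90.2%. With K36M, 4261 were higher in both, 78.8% of the WT and 86.3% of the K36M calls, and 4253 were lower in both, 81.5% and 87.4%. Calls in opposite directions numbered 23 with K9M and 218 with K36M. Of 187 named genes with a call in WT, 180 had the same call in K9M and none the opposite one, and 166 had the same call in K36M and 5 the opposite one.

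The 5 genes with opposite calls in K36M mice were Hdc, Eomes, Mgll, Ldhb and Vav3, all higher in marrow in WT. Hdc had 47.0 and 40.8 CPM in K36M marrow, against 191 and 81.4 CPM in K36M intestine, a log2 fold change of -1.71 (adjusted p = 0.0170). Ldhb had 22.6 and 18.7 CPM in K36M marrow, against 48.8 and 64.1 CPM in K36M intestine, with a log2 fold change of -1.54. Vav3 had 27.6 and 28.4 CPM in K36M marrow, against 88.4 and 44.8 CPM in K36M intestine, with a log2 fold change of -1.33, and Mgll had 22.4 and 22.4 CPM in K36M marrow, against 93.2 and 50.6 CPM in K36M intestine, with a log2 fold change of -1.77. These CPM are on a scaling over all 18 libraries. Whether the tissue contrast differed between genotypes was not tested. Mpo had 6935 and 7039.6 CPM in K9M marrow, against 0.656 and 0.705 CPM in K9M intestine, and 1795 and 1435 CPM in K36M marrow, with both K36M intestine libraries below 1 CPM. Sis had 0.386 and 0.759 CPM in K9M marrow, against 8719.5 and 8212 CPM in K9M intestine, and 0.386 and 0.384 CPM in K36M marrow, against 4699.9 and 4414 CPM in K36M intestine.

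**Figure D5:**
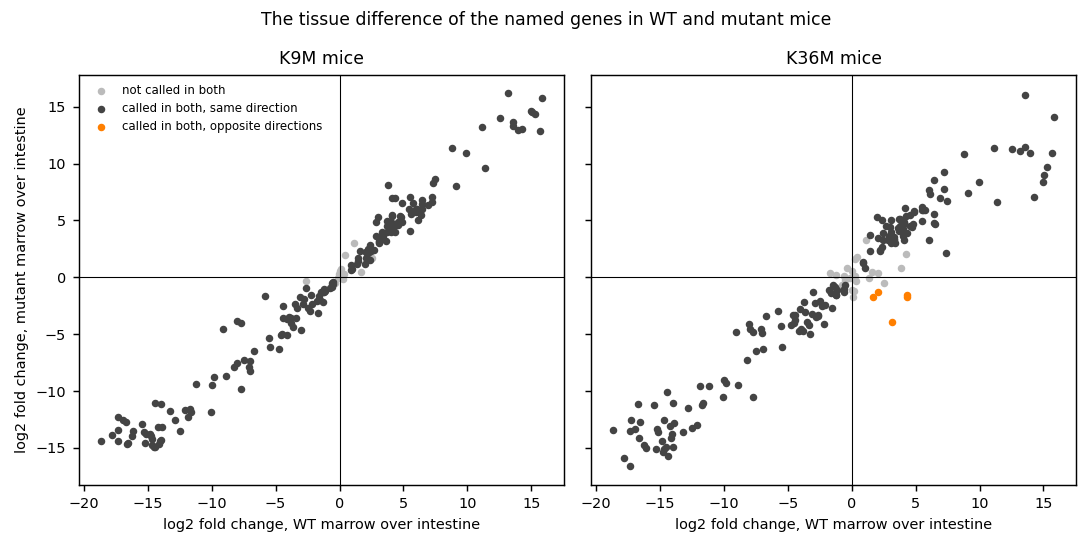
The x axis is the log2 fold change of WT marrow over WT intestine and the y axis that of K9M (left panel) or K36M (right panel) mice, for the named genes, where fitted values of genes with few or no counts in one tissue are no bounds. The 5 genes in orange in the K36M panel have calls in opposite directions.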

How the data were processed

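RNA of WT marrow and WT intestine was measured as poly(A) RNA-seq, made with SMARTer v3 libraries on a HiSeq2500 per the labels' protocols. The authors deposited raw counts per Ensembl gene ID, for which the submitters' processing notes name the aligner STAR, the counter HTSeq and the mm9 genome. Versions, the strand setting and the gene models are not given in the sources used here. Beside 37620 gene IDs, a table held 5 summary entries, which were left out: reads without a feature were 10.2% and 13.4% of all entries in marrow and 12.7% and 14.3% in intestine, reads that mapped more than once 23.1% and 23.7% against 23.8% and 27.3%, and ambiguous reads 2.58% and 2.40% against 3.10% and 2.99%. Symbols, types and chromosomes came from the GENCODE M21 annotation, which named 32897 IDs, of which 30575 were autosomal and 2285 on X or Y, and the 4723 unnamed IDs were not tested.

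The 4 libraries were tested with edgeR 4.0.16 in R 4.3.3 (filterByExpr, TMM factors of 1.35 and 1.38 in marrow against 0.769 and 0.699 in intestine, robust quasi-likelihood fit, Benjamini-Hochberg threshold 0.05, 2 residual degrees of freedom). With n = 2 per tissue the p-values rest on the spread between 2 mice of each tissue and on a dispersion shared across genes. K9M and K36M mice were fitted separately in the same way. DESeq2 1.42.0, limma 3.58.1 (voom), other scalings and filters, other sets of libraries and leaving out each library were alternatives. In simulated data for the WT comparison, 13829 genes were tested and 200 were changed, all with a mean count of at least 50. Of these changes, 57% of 2-fold and 89% of 4-fold ones were recovered. False calls were 25 of 171 (14.6%), at a threshold of 0.05. Few genes were changed there, whereas most genes differed between the tissues, so the simulation does not cover how calls depend on the scaling.

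Named genes were the 8 largest rises and 8 largest falls among protein-coding genes whose mean log2 CPM was 6 or more and no overlap of the groups, the 3 members of each list with the highest CPM in the tissue where they are higher, up to 2 called members per list against its main direction, and both genes of each pair. Some members counted in the lists are not reported here by name. Other members named were chosen after their values were seen. The lists, pairs and members were chosen with earlier results of these data known. Intervals of count ratios are exact, at 95%, and cover counting error only, and floors are 3 counts over both libraries of a tissue. Genes with near-identical copies, overlapping genes and antisense genes may share or lose reads. Promoter windows were matched to RefSeq by symbol, 32851 windows being given on GRCm38.p6.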

Additional observations from a re-analysis of the deposited data

Results flagged for a closer look

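Signals on the sex chromosomes, which the autosomal comparison does not use, differed between the tissues' mice. Mean levels, in CPM of the total gene count, were 0 in WT marrow and 58.5 in WT intestine for Ddx3y, 0 and 81.1 for Eif2s3y, 0 and 30.3 for Kdm5d, and 0 and 26.2 for Uty, all on chromosome Y. Xist, the RNA that coats the inactive X chromosome, averaged 2649.97 CPM in WT marrow, with 0.928 and 0.582 CPM in the WT intestine libraries. Each of these values had the same side in both mice of a tissue. The sex of the mice and the tissue cannot be told apart in this comparison, and the part of sex in the autosomal differences was not tested. Groups of 2 libraries were not examined for outliers.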

How the results depend on the processing

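The number of genes called stayed within 1.5 times of 11189 under every alternative run, and so did the number at least 4-fold different. Leaving out 1 library at a time gave 9022 to 11112 called genes and 5668 to 6330 at least 4-fold different, where the lone library of a tissue is assumed to vary like the others. Under library size alone 6 named genes changed sign: Acsl1 to 0.13, Arhgdia to 0.29, Gmfb to 0.39, Kdm2a to 0.41, Kdm3a to 0.27 and Slc25a37 to 0.26, on the log2 scale, and this setting moved the median of all genes to 0.95, while 7 other named genes lost a call (Ezh1, H2-Aa, H2-Ab1, Lmna, Mecom, Pcgf2 and Rac1) and 10 gained one. Of 198 named genes, 16 lost their call without marrow WT.1262 and 19 without marrow WT.1266, while 4 gained one and 2 lost one without intestine WT.1476. With DESeq2 10522 genes were called, with limma-voom 11312, and without a filter on low counts 11741 of 21739. Genes with few counts in one tissue have fitted fold changes that depend on the prior count. No paired analysis was possible because the marrow and intestine libraries carry no mouse number in common.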

Other observations

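The labels do not say which segment of the intestine was taken, and genes known to vary along it gave these levels. Gata4, of the upper small intestine, had 219 and 265 CPM in WT intestine, and was at least 4631-fold lower in marrow, and Lct, lactase, had 4479.6 and 4724 CPM in WT intestine. Fabp6, the bile acid binding protein of the ileum, had 0.335 and 0 CPM in WT intestine, and Slc10a2, the ileal bile acid transporter, 1.14 and 1.66 CPM in WT intestine. The WT intestine mice differed from each other in some genes of absorption: Slc40a1, the iron exporter, had 63.9 CPM in mouse WT.1476 and 589 CPM in mouse WT.1477, and Alpi, the alkaline phosphatase, had 3541 and 8079 CPM in the same order.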
